A study of Mus musculus with 4 samples.

Results

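Methylation of histone H3 at lysine 9 and its reading by HP1 proteins were followed through 10 genes, taken from the 24054 genes of the count tables by their symbols alone. Trim28, Setdb1 and Atf7ip form the silencing axis that acts on endogenous retroviruses (ERVs). Ehmt1, Ehmt2, Suv39h1 and Suv39h2 encode the other main methyltransferases of this residue, and Cbx1, Cbx3 and Cbx5 encode the HP1 proteins. The selection rule names symbols and uses no measured value, although the list was drawn up with earlier results of these data known. All 10 genes passed the filter on low counts, as did 13267 genes in all.

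The study sequenced total RNA from mouse embryonic stem (ES) cells, asking here how cells with restored Morc3 compare with wild-type cells. The wild-type group is 1 library of wt26, a line with an unmodified Morc3 gene. The Morc3 rescue group is 3 libraries, one from each of the cell lines T131-3C, T131-3D and T131-3M, called clones 3C, 3D and 3M here and given in that order throughout. Each clone descends from the same Morc3 ko line, itself a single CRISPR-Cas9 clone of wt26, and carries a Morc3 cDNA brought in by PiggyBac transposition with puromycin selection. All 4 libraries came from feeder-independent cells grown on gelatin with serum and LIF. The ko line was not analysed here, so the comparison is between rescued and wild-type cells only. With 1 wild-type library its spread is assumed to equal that of the clones, the clones share 1 ko origin, and the sources used here do not say whether wild type and clones were prepared together.

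KRAB zinc finger proteins bind ERV sequences and bring in Trim28, a scaffold protein that recruits the methyltransferase Setdb1, whose partner Atf7ip keeps it in the nucleus and protects it from degradation. Ehmt2 (G9a) and Ehmt1 (GLP) act as a heterodimer that places mono- and dimethylation in euchromatin, while Suv39h1 and Suv39h2 place trimethylation at pericentric heterochromatin. HP1 proteins bind the methylated residue through a chromodomain and dimerise through a chromoshadow domain, which also holds Trim28.

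Of the HP1 genes, Cbx3 has many processed copies in the mouse genome, and the sequence shows how far its counts can be told from theirs. The stretch of 60 coding bases shown here, read from GENCODE M21 transcripts (GRCm38), lies at coding bases 466 to 525 of Cbx3, within the part that encodes the chromoshadow domain. Capitals mark bases that differ from Cbx3.
Cbx3: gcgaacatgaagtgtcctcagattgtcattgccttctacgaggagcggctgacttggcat
Cbx3-ps6: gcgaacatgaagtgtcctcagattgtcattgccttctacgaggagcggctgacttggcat
Cbx3-ps7: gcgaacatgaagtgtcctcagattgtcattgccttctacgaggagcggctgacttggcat
Cbx1: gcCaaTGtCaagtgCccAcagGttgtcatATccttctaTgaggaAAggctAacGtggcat
Cbx5: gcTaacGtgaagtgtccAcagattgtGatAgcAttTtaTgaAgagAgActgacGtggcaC
The stretch was chosen among those that the pseudogenes Cbx3-ps6 on chromosome 14 and Cbx3-ps7 on chromosome 1 carry without a mismatch. Their identity to Cbx3 here is thus set by the choice. Among such stretches, the one closest to the paralogs was taken, by the larger of its mismatch counts to Cbx1 and Cbx5. Even so, Cbx1 and Cbx5 differ from it at 14 and 13 of the 60 bases. A read of 50 bases can therefore tell the HP1 paralogs apart in this stretch, but not Cbx3 from these copies.

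The whole main transcript of each gene was split into overlapping windows of 50 bases, the read length. In Cbx3, 532 of 1840 windows (28.9%) also occur in transcripts of 16 genes elsewhere in the genome. The sharing lies mainly in the coding part, with 453 of 503 windows (90.1%) against 79 of 1337 (5.91%) in the rest. Only read pairs with 1 place in the genome were counted, so read pairs lying wholly in such stretches can be missing from the Cbx3 counts. The windows are of spliced transcripts and no alignment was examined, so how many were lost was not tested. Of the other members, Setdb1 shares 280 windows (6.08%) with the noncoding gene Gm4349 on chromosome 3, Atf7ip shares 80 windows (0.999%) and Cbx5 shares 2. The remaining 6 members share none with annotated transcripts of genes elsewhere, and copies outside the annotation were not searched for. Windows shared with genes that overlap a member at its own locus were kept apart. They number 629 in Suv39h1, 183 in Suv39h2 and 177 in Setdb1.

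**Figure D1:**
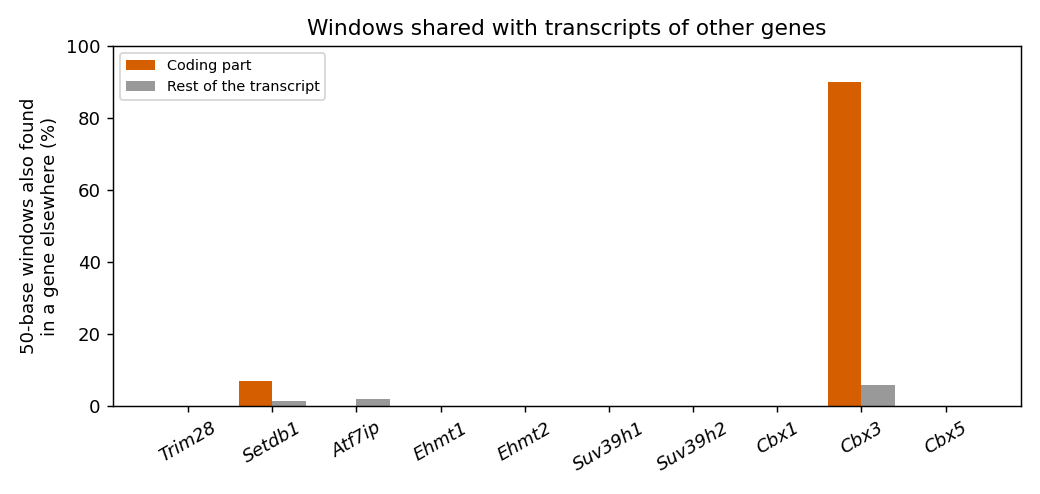
Percent of 50-base windows of each member's main transcript that also occur in a transcript of a gene elsewhere in the genome (y axis), for the coding part (orange) and the rest (grey). Cbx3 stands apart, with 90.1% of its coding windows shared.

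Between 13620914 and 15479190 read pairs lay on genes in the clones and 18789457 in wild type. Unmapped read pairs made up 21.0% to 23.0% of the clones' libraries and 14.5% of the wild-type library. The 6 ES cell markers summed to 3001 CPM (each count scaled to the TMM-adjusted size of its library) in wild type and 3037 to 3243 in the clones. This sum hides differences in single markers. Nanog had 5715 counts in wild type, the largest library, against 6309, 5212 and 7450 in the clones. Klf4 had 3980 against 2426, 3600 and 2361. Of the 5 marker lists of other cell types (13 genes), the highest sum in any library was 79.9 CPM (trophoblast, mostly Tfap2c), where Cdx2 and Elf5 had at most 5 counts. Fibroblast markers summed to 32.9 CPM in wild type and 20.3 to 45.0 CPM in the clones, mostly Thy1 (605 counts in wild type against 589, 271 and 351), with 11 to 22 counts of Col1a1 and at most 3 of Col1a2. Primitive endoderm, neuroectoderm and mesoderm markers summed to at most 5.09 CPM, led by Sox1 (37 to 72 counts) and Gata4 (21 to 56 counts). Clone medians stood above wild type on chromosome 14 (464 genes, log2 difference 0.34, 0.34 and 0.35) and, in clones 3C and 3M, on chromosome 13 (512 genes, 0.48, 0.03 and 0.48). No member lies on either chromosome, and the members are spread over 8 others.

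Morc3 itself, which encodes an ATPase of the Morc family, was read beside the labels. Its counts were 3065 in wild type against 8830, 7225 and 9437 in the clones, which is 161 CPM against 587 ± 81.5 CPM (SD, n = 3). Every clone stood above wild type, and clone 3D was the lowest of the clones. The rescue label names a restored Morc3 and gives no level, and without the ko line the gain over that line was not seen. The log2 fold change was 1.87 (SE 0.17), a 3.65-fold higher level, and it did not pass the threshold in the quasi-likelihood test of edgeR (Benjamini-Hochberg adjusted p = 0.108, unadjusted p = 5.25e-05). At the adjusted p of 0.01 used throughout, this test called 1 of 13267 genes (0.00754%), and DESeq2 called 64 of the 9727 genes to which it gave an adjusted p (0.658%). The gene called by edgeR, named after its values were seen, was the Y-linked helicase gene Ddx3y, with 922 counts in wild type against 5, 0 and 1 in the clones.

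None of the 10 genes of the H3K9 machinery passed the test in either tool. None had an unadjusted p under 0.05 either, where 1372 genes (10.3% of those tested) did, and the smallest adjusted p of a member was 0.614. Their log2 fold changes, rescue over wild type, ran from −0.11 for Cbx1 to 0.12 for Suv39h1, with a median of −0.05 beside 0.01 for all genes tested. All 10 lay within 0.25 of 0, which holds for 67.2% of all genes tested. All 10 intervals (95%) lay within 1 log2 unit of 0, as did 73.5% of those of all genes tested. Both shares cover genes of every level, while the members ranked between the 47.15th and the 99.85th percentile of level. The part of depth in these comparisons was not tested. The members' intervals together spanned −0.35 to 0.52, so that a change beyond 0.783-fold or 1.43-fold lies outside all 10 intervals. In bulk RNA, a smaller share of cells expressing a gene and less RNA per cell cannot be told apart, and levels of RNA say nothing of the proteins.

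**Figure D2:**
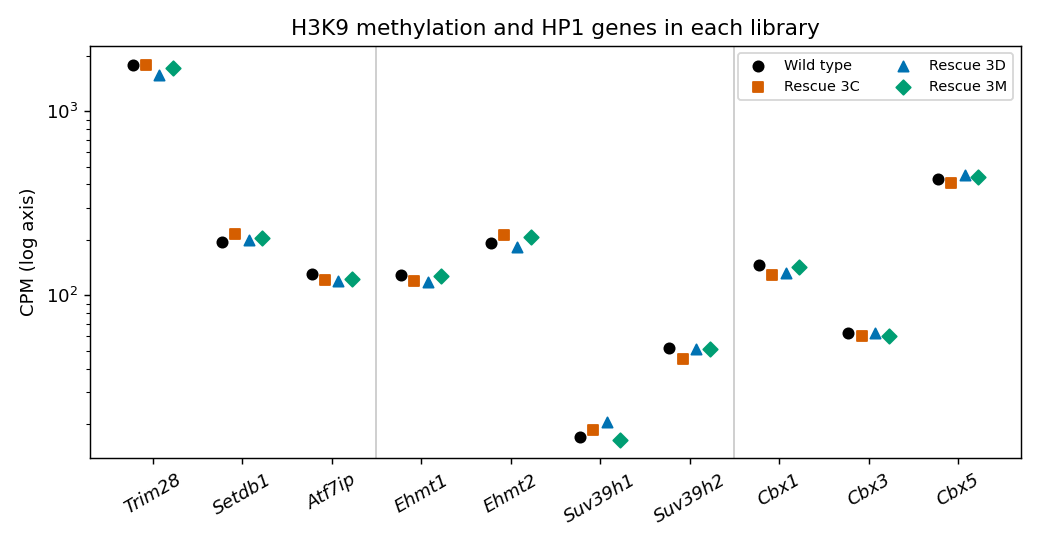
CPM of the 10 members (log axis) in the wild-type library (black) and rescue clones 3C, 3D and 3M (orange, blue and green), with lines between the Trim28-Setdb1 axis, the other methyltransferases and the HP1 genes. For every gene the 4 libraries lie close together beside the differences between genes, from 16.5 CPM (Suv39h1 in clone 3M) to 1787 CPM (Trim28 in wild type).

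The axis that silences ERVs came first. Trim28 (chr7:12999114-13031035, plus strand) had 34077 counts in wild type against 23850, 22834 and 26590 in the clones. Scaled to library size these were 1787 CPM against 1769, 1569 and 1716. All clones lay below wild type, clone 3C by little and clone 3D by the most. The log2 fold change of −0.08 (SE 0.08, interval −0.28 to 0.11) did not pass edgeR's quasi-likelihood test (adjusted p = 0.743). At this depth the coefficient of variation (CV) expected from counting alone was 0.64%, and the CV of the clones was 6.15%.

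Setdb1, the trimethylating enzyme of the axis (chr3:95323525-95357202, minus strand), had 3713 counts in wild type against 2918, 2922 and 3156 in the clones, or 194.7 CPM against 216.5, 200.8 and 203.7. It was the only member with all clones above wild type, a pattern seen in 28.7% of all genes tested. Its log2 fold change was 0.09 (SE 0.07, interval −0.10 to 0.27, edgeR adjusted p = 0.712).

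Atf7ip, the Setdb1 partner (chr6:136506167-136610862, plus strand), had 2504 counts in wild type against 1634, 1754 and 1905 in the clones. That was 131.3 CPM against 121.2, 120.5 and 123.0, with the clones nearly equal and all below wild type. The clones varied with a CV of 1.03%, less than the 2.38% that counting gives on average. Its log2 fold change of −0.11 (SE 0.07, interval −0.28 to 0.06) had the smallest adjusted p of the members, 0.614 in edgeR's quasi-likelihood test.

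The balance within the axis was described inside each library, where scaling between libraries has no part. On the log2 scale, the ratio of Setdb1 to Atf7ip per kilobase of main transcript was 1.36 in wild type against 1.63, 1.53 and 1.52 in the clones, a difference of 0.20. The ratio of Trim28 to Setdb1 was 3.72 in wild type against 3.55, 3.49 and 3.60 in the clones, a difference of −0.17. All clones lay on one side of wild type in both ratios, which follows from Setdb1 lying above wild type and its partners below in every clone and adds nothing to those values. Both gave p = 0.25 in a two-sided exact permutation test, the smallest p that this test can give with 3 libraries against 1. Over the 6 ratios and 3 shares tested in this way, the others given with their genes, the lowest Benjamini-Hochberg adjusted p was 0.75.

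**Figure D3:**
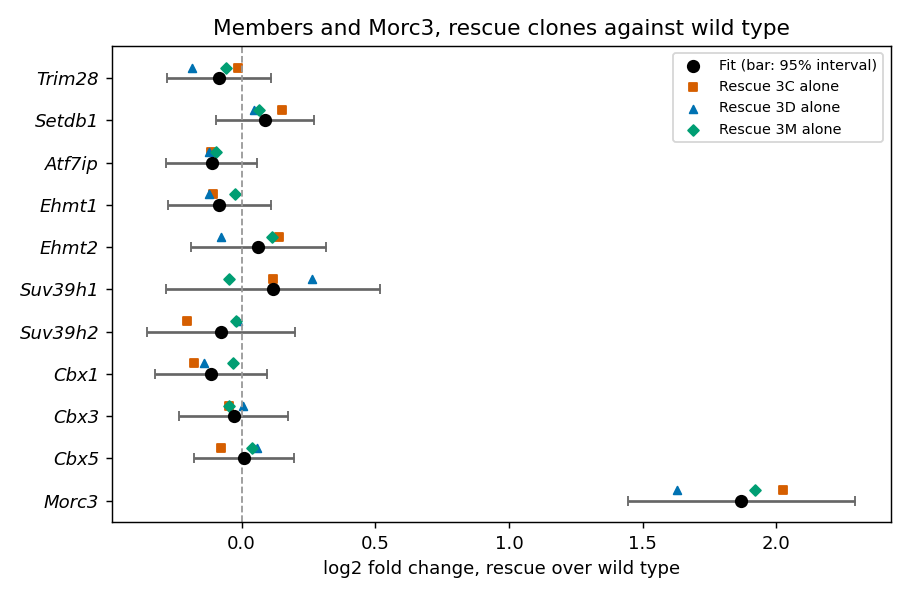
Log2 fold change, rescue over wild type (x axis), of the 10 members and Morc3, with the edgeR estimate as a black circle and its 95% interval as a bar. Coloured symbols give each clone alone against wild type. All 10 member intervals include 0 and lie between −0.35 and 0.52, while Morc3 lies at 1.87.

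The dimethylating pair was next. Ehmt1 (chr2:24789928-24919614, minus strand) had 2463 counts in wild type against 1617, 1728 and 1969 in the clones. This was 129.1 CPM against 119.9, 118.8 and 127.1, below wild type in all clones but close to it in clone 3M (log2 fold change −0.08, SE 0.08, interval −0.27 to 0.11). Its partner Ehmt2 (chr17:34898469-34914052, plus strand) had 3673 counts in wild type against 2864, 2659 and 3226 in the clones. The clones lay on both sides of wild type, at 212.4, 182.7 and 208.2 CPM against 192.6, with clone 3D the low one (log2 fold change 0.06, SE 0.10, interval −0.19 to 0.32). Neither passed edgeR's quasi-likelihood test (adjusted p = 0.743 and 0.860). The log2 ratio of Ehmt1 to Ehmt2 per kilobase was −1.14 in wild type against −1.39, −1.19 and −1.28 in the clones. All clones lay below wild type, and the difference of −0.14 gave p = 0.5 in the exact permutation test.

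Suv39h1 (chrX:8061171-8074760, minus strand) had the fewest counts of the members, with 326 in wild type against 250, 299 and 256 in the clones. Its levels of 17.1 CPM in wild type against 18.5, 20.6 and 16.5 CPM in the clones overlapped. Clone 3D held the largest single difference from wild type among all 30 member values, 0.26 on the log2 scale, and the only one beyond 0.25. The log2 fold change of 0.12 had the widest interval of the members, −0.28 to 0.52 (SE 0.16, edgeR adjusted p = 0.837), with a clone CV of 10.9% where counting alone gives 6.11%.

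Suv39h1 was also the only member with many read pairs on the opposite strand. These numbered 209 in wild type against 170, 144 and 191 in the clones, or 39.1%, 40.5%, 32.5% and 42.7% of the read pairs on both strands. In GENCODE M21 the antisense gene Gm14820 overlaps Suv39h1 and shares 629 of its 3067 windows (20.5%) in reverse complement. Suv39h2 (1.98% to 3.34%) overlaps Dclre1c on the other strand, and the remaining 8 members had under 0.49%. Since the libraries are strand-specific, the Suv39h1 counts used here exclude the opposite strand, which stood at 11.1 CPM in wild type against 12.5, 9.82 and 12.3 CPM in the clones, of all read pairs on genes. With strand ignored, the Suv39h1 log2 fold change was 0.10 and that of Suv39h2 −0.11.

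**Figure D4:**
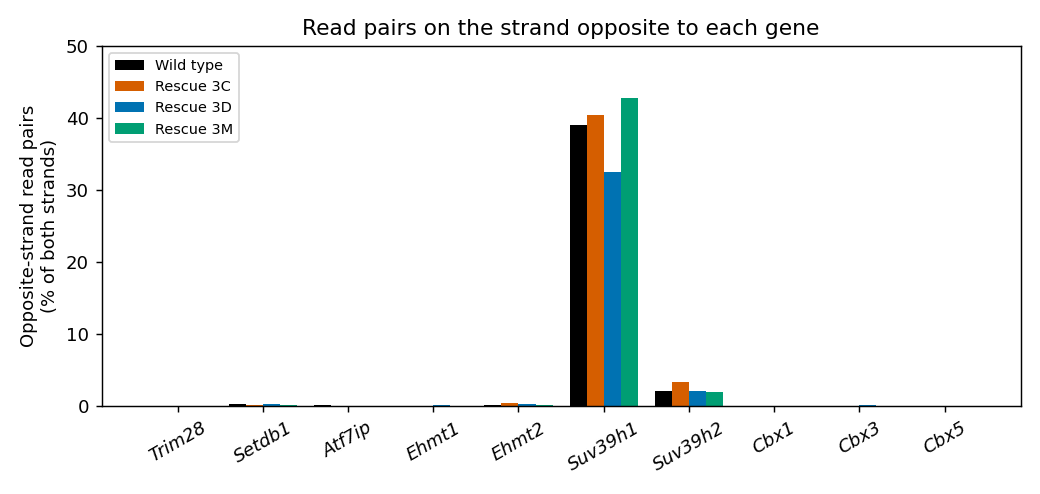
Read pairs on the strand opposite to each member, as percent of the read pairs on both strands (y axis), in wild type and the 3 rescue clones. Suv39h1 reaches 32.5% to 42.7%, and Suv39h2 is next with at most 3.34%.

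Suv39h2 (chr2:3455815-3475031, minus strand) had 991 counts in wild type against 607, 749 and 793 in the clones. Clones 3D and 3M, at 51.5 and 51.2 CPM, lay within 0.03 log2 units of wild type at 52.0 CPM, and clone 3C was lower at 45.0 CPM. The log2 fold change was −0.08 (SE 0.11, interval −0.35 to 0.20, edgeR adjusted p = 0.842). Between the paralogs, the log2 ratio of Suv39h1 to Suv39h2 per kilobase was −1.13 in wild type against −0.81, −0.85 and −1.16 in the clones. Suv39h2 was thus the more abundant in every library, and the difference of 0.19 gave p = 0.75 in the exact permutation test.

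The HP1 genes, whose proteins read the mark, came last. Cbx5 (HP1 alpha, chr15:103191544-103239816, minus strand) had 8199 counts in wild type against 5491, 6513 and 6841 in the clones. Its levels of 429.9 CPM and 407.3, 447.6 and 441.6 CPM placed wild type within the range of the clones. The log2 fold change of 0.01 (SE 0.08, interval −0.18 to 0.19, edgeR adjusted p = 0.985) turned to −0.02 without clone 3D and to −0.01 without clone 3M, so it has no direction.

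Cbx3 (HP1 gamma, chr6:51470360-51483704, plus strand) had 1190 counts in wild type against 814, 910 and 936 in the clones. At 62.4 CPM in wild type against 60.4, 62.5 and 60.4 CPM in the clones, it varied less between clones (CV 2.02%) than counting predicts (3.36%). Its log2 fold change was −0.03 (SE 0.08, interval −0.23 to 0.17, edgeR adjusted p = 0.929). The counts behind this value can lack read pairs that fall wholly in the shared stretches described with its sequence.

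Cbx1 (HP1 beta, chr11:96789127-96808640, plus strand) had 2774 counts in wild type against 1734, 1921 and 2203 in the clones. All clones were below the 145.4 CPM of wild type, at 128.6, 132.0 and 142.2 CPM. The log2 fold change was −0.11 (SE 0.08, interval −0.32 to 0.09), and edgeR's quasi-likelihood test made no call (adjusted p = 0.668).

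Counting the members by side, 5 lay below wild type in all clones (Trim28, Atf7ip, Ehmt1, Suv39h2 and Cbx1), beside 28.4% of all genes tested. With Setdb1 above, wild type lay outside the range of the clones for 6 of 10 members, beside 57.1% of all genes tested, and the other 4 had wild type inside that range. The median CV over the clones was 5.14% for the members, from 1.03% for Atf7ip to 10.9% for Suv39h1, and 9.03% for all genes tested. Their levels ranked between the 47.15th and the 99.85th percentile of all genes tested, and the part of depth in this difference was not tested.

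Levels between genes were compared as CPM per kilobase of the longest principal transcript in GENCODE M21. Trim28 led by far, at 551 in wild type and 519 ± 31.9 in the clones (SD, n = 3). Cbx1 followed at 116 and 107 ± 5.65. Cbx5 (48.8 and 49.1 ± 2.47), Ehmt2 (47.8 and 49.96 ± 3.99) and Setdb1 (41.8 and 44.4 ± 1.79) came next, and the ranges of neighbours in this trio overlapped over the 4 libraries. Below them stood Cbx3 at 33.0 and 32.4 ± 0.654, Ehmt1 at 21.7 and 20.5 ± 0.758 and Atf7ip at 16.3 and 15.1 ± 0.155. The pair at pericentric heterochromatin was lowest, with Suv39h2 at 12.0 and 11.4 ± 0.842 and Suv39h1 at 5.49 and 5.95 ± 0.646. Apart from the trio, no gene's range reached that of its neighbour in the order, and the distance from Trim28 to Suv39h1 was 100.4-fold in wild type.

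The order depends on the length given to each gene, and not only for the HP1 genes. With the union of all annotated exons as length, Cbx1 went from rank 2 to rank 4 (34.0 CPM per kilobase in wild type), Cbx5 took rank 2 (47.7) and Cbx3 went to rank 8 (10.4). Suv39h2 rose from rank 9 to rank 7 (11.8), above Cbx3 and above Atf7ip, which went from rank 8 to rank 9 (6.34). The Suv39h pair was thus not the lowest with this length. Trim28 stayed first and Suv39h1 last. When only windows not found elsewhere counted as length, Cbx3 stood at rank 5 in wild type in place of rank 6.

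As shares of the summed HP1 level per kilobase, Cbx1 held 58.7% in wild type against 56.8%, 55.7% and 58.1% in the clones. Cbx5 held 24.7% and 25.6%, 26.8% and 25.6%, and Cbx3 held 16.7% and 17.7%, 17.5% and 16.3%. The largest difference between the clones' mean and wild type was −1.84 percentage points for Cbx1 (56.8% ± 1.18 in the clones, p = 0.5 in the two-sided exact permutation test). The log2 ratio of Cbx1 to Cbx5 was 1.25 in wild type against 1.15, 1.05 and 1.18 in the clones (difference −0.12, exact p = 0.5), and that of Cbx3 to Cbx5 was −0.56 and −0.53, −0.62 and −0.65 (difference −0.04, exact p = 1). Which HP1 gene led was a matter of the length used, since with the exon union Cbx5 held 51.8% and Cbx1 36.9% in wild type.

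The promoters of these genes differed in their density of CpG dinucleotides, which is high at many broadly expressed genes. RefSeq start sites (GRCm38.p6) gave 14 windows, each around 1 start site, for the 10 members, with a median of 29 CG dinucleotides and a range of 8 to 40. All 32851 windows of the same length in the table had a median of 7, with quartiles of 3 and 20. The single window of Setdb1 and the first of Suv39h1 held 15 each, below the upper quartile. The lowest member window, a downstream start of Cbx5, was met or exceeded by 48.65% of all windows.

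Genes around the machinery were then read in lists. Of the cofactors and further methyltransferases, 9 of 9 were tested, none was called by edgeR and 3 had an unadjusted p under 0.05, all of them higher in the clones, where 786 of the 13267 genes tested were higher at that p. These were Mecom (log2 fold change 2.41, SE 0.42, adjusted p = 0.191), Setdb2 (0.43, SE 0.11, adjusted p = 0.305) and Prdm16 (0.43, SE 0.15, adjusted p = 0.443). Mecom and Prdm16 encode PR domain transcription factors to which methylation of this residue has been ascribed, and Setdb2 is a relative of Setdb1. The counts of Mecom were 10 in wild type against 34, 46 and 43 in the clones, or 0.52 CPM against 2.82 ± 0.322, so its RNA was scarce in both groups. Setdb2 had 419 counts in wild type against 406, 421 and 464 in the clones, or 22.0 CPM against 29.7 ± 0.641, and it lies on chromosome 14, where the median gene stood 0.34 or 0.35 above wild type in each clone, and the part of the chromosome in its value was not tested. Prdm16 had 252 counts in wild type against 261, 257 and 253 in the clones.

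The median of this list was 0.26, beside 0.01 for all genes tested, but it was 0.25, −0.00 and 0.30 with each clone taken singly. Zfp644, which encodes a zinc finger partner of the Ehmt dimer, was lowest at 0.03 (SE 0.08). Cdyl2, a chromodomain gene and the one with the most counts of the list, had 2645 counts in wild type against 3012, 1761 and 2444 in the clones. Its clones lay on both sides of wild type (0.27, SE 0.32).

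The enzymes that remove the mark stood at a median log2 fold change of 0.02, with 10 of 11 tested and no call by edgeR or unadjusted p under 0.05. Kdm4d, the demethylase not tested, had at most 7 counts. Jmjd1c, the most abundant of these, had 6516 counts in wild type against 5002, 4994 and 4796 in the clones (−0.00, SE 0.11). Kdm4a, which removes trimethylation, was lowest at −0.13 (SE 0.09). Phf2 was highest at 0.62 (SE 0.30, edgeR adjusted p = 0.552), with 12.6 CPM in wild type against 23.4, 13.7 and 21.1 CPM in the clones. It lies on chromosome 13, where the same pair of clones stood above wild type as a whole. Without clone 3D its log2 fold change was 0.81 and passed edgeR's test (adjusted p = 0.00883), in a fit that called 420 genes in place of 1. The part of the chromosome in these values was not tested.

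Partners of HP1 and Trim28 were read next. Of 11, 10 were tested, none was called or had an unadjusted p under 0.05, and the log2 fold changes ran from −0.13 for Lbr to 0.07 for Trim24, with a median of −0.00. Lbr, which encodes the lamin B receptor that binds HP1 at the nuclear envelope, had 7185 counts in wild type against 4604, 5267 and 5071 in the clones. Trim24, a relative of Trim28, had 3333 and 2378, 2874 and 2746 counts. Chd4, the remodelling ATPase of the NuRD complex that associates with Trim28, had the most counts, with 19973 in wild type against 14777, 15329 and 17498 in the clones (0.06, SE 0.06). Trim66 had at most 8 counts and was not tested.

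Upstream of Trim28, 7 KRAB zinc finger genes with known targets were all tested and none was called by edgeR, with a median of 0.13. Zfp568, a repressor of a placental transcript of Igf2, was lowest at −0.29 (SE 0.09, unadjusted p = 0.0165, adjusted p = 0.367). Its level was 289 CPM in wild type against 236 ± 15.2 CPM in the clones, all of them lower. Zfp708 was highest at 0.69 (SE 0.21, unadjusted p = 0.0178, adjusted p = 0.377 in edgeR's test), with 97 counts in wild type against 106, 111 and 140 in the clones, and it lies on chromosome 13. Its level was 5.09 CPM in wild type against 7.86, 7.63 and 9.04 CPM in the clones, where the chromosome 13 medians were 0.48, 0.03 and 0.48. The part of the chromosome in this value was not tested. Zfp57, which protects imprinted methylation, had the most counts, with 6171 in wild type against 5227, 5214 and 5208 in the clones (0.16, SE 0.09).

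Genes of the 2-cell-like state, which ES cells switch on when repression by Trim28 or Setdb1 is lost, were nearly silent in all libraries. Of 10, 9 were in the table and none had enough counts to be tested. No more than 2 counts of one gene, Zscan4d in clone 3C, were seen in any library, although these genes are multi-copy and lose read pairs that map to several places.

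**Figure D5:**
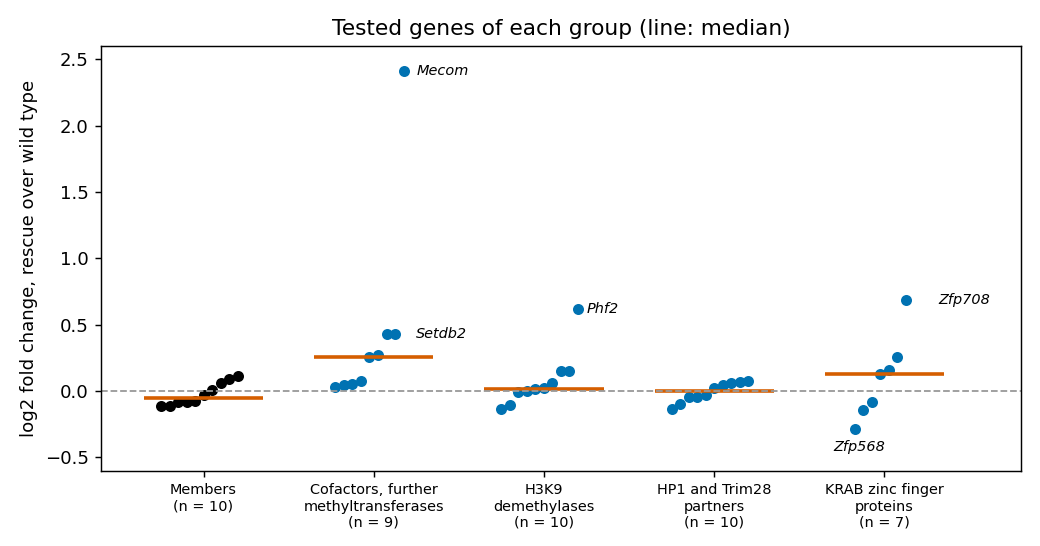
Log2 fold changes, rescue over wild type (y axis), of the members (black) and of the tested genes of 4 further lists (blue), with orange lines at the medians. Members and partners lie near 0, and the genes farthest above it are Mecom at 2.41, Zfp708 at 0.69, Phf2 at 0.62 and Setdb2 and Prdm16, both at 0.43. Zfp568 at −0.29 is the lowest.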

How the data were processed

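The authors extracted total RNA with Trizol, depleted ribosomal RNA, prepared strand-specific libraries (NEBNext Ultra Directional kit) and aligned the read pairs to mm10 with STAR. The deposited values are raw counts, for each gene, of read pairs with 1 place in the genome, in an unstranded and 2 stranded columns, and the reverse-strand column was used. The sources used here do not name the gene annotation behind the counts. Rows that name no gene stayed out of library sizes (multimapping 7.85% to 8.21% and unassigned 23.6% to 24.7% of read pairs). The forward column held 1.26% to 1.31% as many counts as the reverse column.

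The test was that of edgeR 4.0.16 in R 4.3.3 (filterByExpr, TMM, glmQLFit and glmQLFTest without the legacy option) on 3 rescue libraries and 1 wild-type library, with Benjamini-Hochberg adjustment over 13267 genes and a threshold of 0.01, after checks on simulated counts. No samples were merged (chi-square per gene 7.42 or more for every pair of libraries). Nothing says that libraries other than the named clones came from separate cultures, so p-values measure only the spread between these libraries. DESeq2 1.42.0, limma-voom (limma 3.58.1), other filters, scalings and lengths, the unstranded column and leaving out each clone were alternatives. Levels per kilobase used GENCODE M21 transcripts (GRCm38), and promoter windows came from RefSeq. Coordinates are those of GENCODE M21. The number of libraries and the counting error limit precision.

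The members and gene lists were chosen with earlier results of these data known. All members and Morc3 are named, and from each further list the genes at an unadjusted p under 0.05, the highest and lowest log2 fold change and the highest mean count.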

Additional observations from a re-analysis of the deposited data

Results flagged for a closer look

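Morc3 read pairs on the strand opposite to the gene stood out in a column that no comparison uses. They numbered 7 in wild type against 1963, 2001 and 2266 in the clones (3C, 3D and 3M). Scaled to all read pairs on genes, this was 0.372 CPM against 144.1, 136.5 and 146.4 CPM. The lowest clone, at 136.5, is thus far above the wild-type library. The clones carry a Morc3 cDNA and wild type does not, and the source of these read pairs was not tested. None of the 10 members had opposite-strand levels above wild type in all clones. With groups of 3 and 1, no library was tested as an outlier.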

How the results depend on the processing

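Over 326 values recomputed with other settings, 10 moved beyond their limits (the spread between clones, or 1.5 times for a count), 4 changed sign and none of the member fold changes crossed the threshold. No member was called under any of them, and the 120 member fold changes ran from −0.16 to 0.19 (log2) with no adjusted p under 0.418. The sign changes were Cbx5 without clone 3D (−0.019) and without clone 3M (−0.0084), and the median of the HP1 and Trim28 partners without clone 3C (0.0086) and with TMM factors computed without chromosomes 13 and 14 (0.01). The number of genes called, 1 in edgeR, was 0 with at least 10 counts in every library, 0 in limma-voom, 0 with edgeR's legacy option and 64 in DESeq2, of which 51 were higher in the clones. Leaving out a clone gave between 0 and 420 calls (0 to 332 higher in the clones), with the 420 seen without clone 3D, and 0 without clone 3M. Among the H3K9 demethylases it gave 0 to 1 calls (Phf2 without clone 3D), and a median log2 fold change of 0.00033 to 0.053. These causes were not tested. TMM factors computed without chromosomes 13 and 14, and the exon-union and unshared-window lengths, were added after seeing the data. No paired analysis was possible because the 1 wild-type library shares no pairing with the clones. With 326 counts or fewer a library, Suv39h1 is the member that depth limits most.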
